A study of Eonycteris spelaea and Mus musculus with 51 samples.

Results

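The genes described here are 10 chaperones and folding helpers of the endoplasmic reticulum (ER): Hspa5, Hsp90b1, Pdia4, Pdia6, Calr, Creld2, Manf, Hyou1, Dnajb9 and Sdf2l1. They were chosen by name and function, with earlier results of these data known. In the mouse they were 10 of 40840 rows, found by gene symbol. In the bat they were 10 of 30017 rows, found by the human Ensembl gene identifiers that name those rows, and mouse symbols are used below for both species. All 10 passed the filter on low counts in each tissue of each species.

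The study asked how a bat responds to heat in comparison with the mouse, and sequenced RNA from lung, muscle and blood of Eonycteris spelaea (the cave nectar bat) and Mus musculus. Control is the baseline before any treatment, heat is the end of a heat shock of 1 h in vivo, and recovery is the same exposure and then 4 h without heat. The 51 libraries, 27 of bat and 24 of mouse, form 18 groups of 3 libraries each, except that the mouse blood groups hold 2. Mouse strain, age and sex, the temperature reached, pooling and which libraries share an animal are not given in the sources used here. The recovery groups were heated too, so no group shows the passage of time without heat. Where nothing says that libraries of a group came from separate animals, p-values measure only the spread between these libraries.

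Proteins that are secreted or sit in membranes fold inside the ER, where chaperones hold them, disulfide isomerases join their cysteines, and lectin chaperones read their sugar chains. When unfolded protein builds up there, the sensors Ire1, Perk and Atf6 start the unfolded protein response, which raises transcription of many ER chaperone genes. Heat also activates Hsf1, which drives a different set, the chaperones of the cytosol.

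Many soluble ER residents carry a C-terminal retrieval signal, named KDEL after its amino acids, by which receptors return them from the Golgi. The ends of the mouse coding sequences are shown because they display how far the 10 genes share this feature, which played no part in choosing them. Each line gives the last 30 coding bases before the stop codon, 5′ to 3′, with the last 4 codons in capitals, from the GENCODE M21 annotation of mouse build GRCm38.
Hspa5: gaagaggatacatcagaaAAAGATGAGTTG
Hsp90b1: gaaaaggaatctacagagAAGGATGAATTG
Pdia6: gagctggatgacctggagAAGGATGAGTTG
Calr: gaatcccctggccaagccAAGGATGAGCTG
Pdia4: acaaagaggagcaggaccAAGGAAGAGCTT
Hyou1: cagaagcggccttcaaagAACGATGAACTA
Sdf2l1: gcagatctctccacgggtCACGATGAACTC
Creld2: cccacacagccaccctccCGTGAGGATTTG
Manf: cccaaggcagccagcgcaCGGACTGATCTG
Dnajb9: gttactacatacactgatTGTTCAGGACAA

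Translated, the capitals of Hspa5, Hsp90b1, Pdia6 and Calr give the KDEL signal itself, in 4 of 10 genes. Those of Pdia4, Hyou1 and Sdf2l1 differ from it at 1 residue, and those of Creld2 and Manf at 3. Dnajb9 differs at all 4. The genes lie apart in the mouse genome, on chromosomes 2 (Hspa5), 10 (Hsp90b1), 6 (Pdia4), 8 (Calr), 15 (Creld2) and 16 (Sdf2l1), with Pdia6 and Dnajb9 both on chromosome 12 and Manf and Hyou1 both on chromosome 9.

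Total counts ranged from 17.1 to 54.5 M per mouse library and from 9.29 to 33.3 M per bat library. The lowest was bat lung control 3, which also had the lowest level of 8 of the 10 genes in its group. Marker genes matched the tissue labels in the mouse: the summed level of 9 lung epithelial markers was at least 15088 CPM (counts per 1000000 counts) in each lung library and at most 5.53 elsewhere, and 8 muscle fibre markers summed to at least 172520 CPM in each muscle library. In mouse blood, 6 erythroid markers summed to 368264 CPM or more. The same markers were not analysed in the bat, because its human identifiers are not paired with names in the files used here.

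Levels are given as CPM after TMM scaling (trimmed mean of M values), computed separately for each tissue of each species. A gene is said to have risen or fallen where edgeR's quasi-likelihood test gave a Benjamini-Hochberg adjusted p below 0.05 over all genes tested in that tissue. The 3 comparisons within a tissue share their libraries, so they are given side by side and not as separate evidence. In bulk tissue, fewer cells of a type and less RNA per cell cannot be told apart.

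In mouse lung 4 of the 10 genes rose directly after heat, and all 10 fell between heat and the end of 4 h of recovery. Hspa5, the ER member of the HSP70 family (BiP) that binds unfolded chains, had 380.3, 360.9 and 336.7 CPM in control, 536.1, 567.0 and 487.5 after heat, and 235.3, 270.7 and 269.6 after recovery. The 3 groups did not overlap, with recovery lowest and heat highest. From control to heat Hspa5 rose by 0.56 (log2 scale, SE 0.088, 1.48-fold, edgeR adjusted p = 0.00767).

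Creld2, an ER-resident protein with EGF-like repeats that ER stress is known to induce, had 17.1, 18.4 and 18.5 CPM in control, 27.1, 31.5 and 27.6 after heat, and 15.8, 16.8 and 13.9 after recovery. Manf, a small BiP-binding protein that is also secreted as a neurotrophic factor, had 35.8, 44.9 and 34.3 CPM in control, 53.6, 59.5 and 51.7 after heat, and 23.4, 25.6 and 28.2 after recovery. Every heat library of both genes lay above every control library, and every recovery library lay below. Sdf2l1, a partner of BiP's J-domain co-chaperones, was far scarcer, with 9.09, 7.21 and 9.40 CPM in control, 11.3, 17.1 and 13.1 after heat, and 8.26, 9.20 and 7.27 after recovery. Its heat libraries were again the highest, while control and recovery overlapped. With heat Creld2 rose by 0.67 (SE 0.11, adjusted p = 0.00767), Manf by 0.52 (SE 0.12, adjusted p = 0.0253) and Sdf2l1 by 0.69 (SE 0.18, adjusted p = 0.042).

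**Figure D1:**
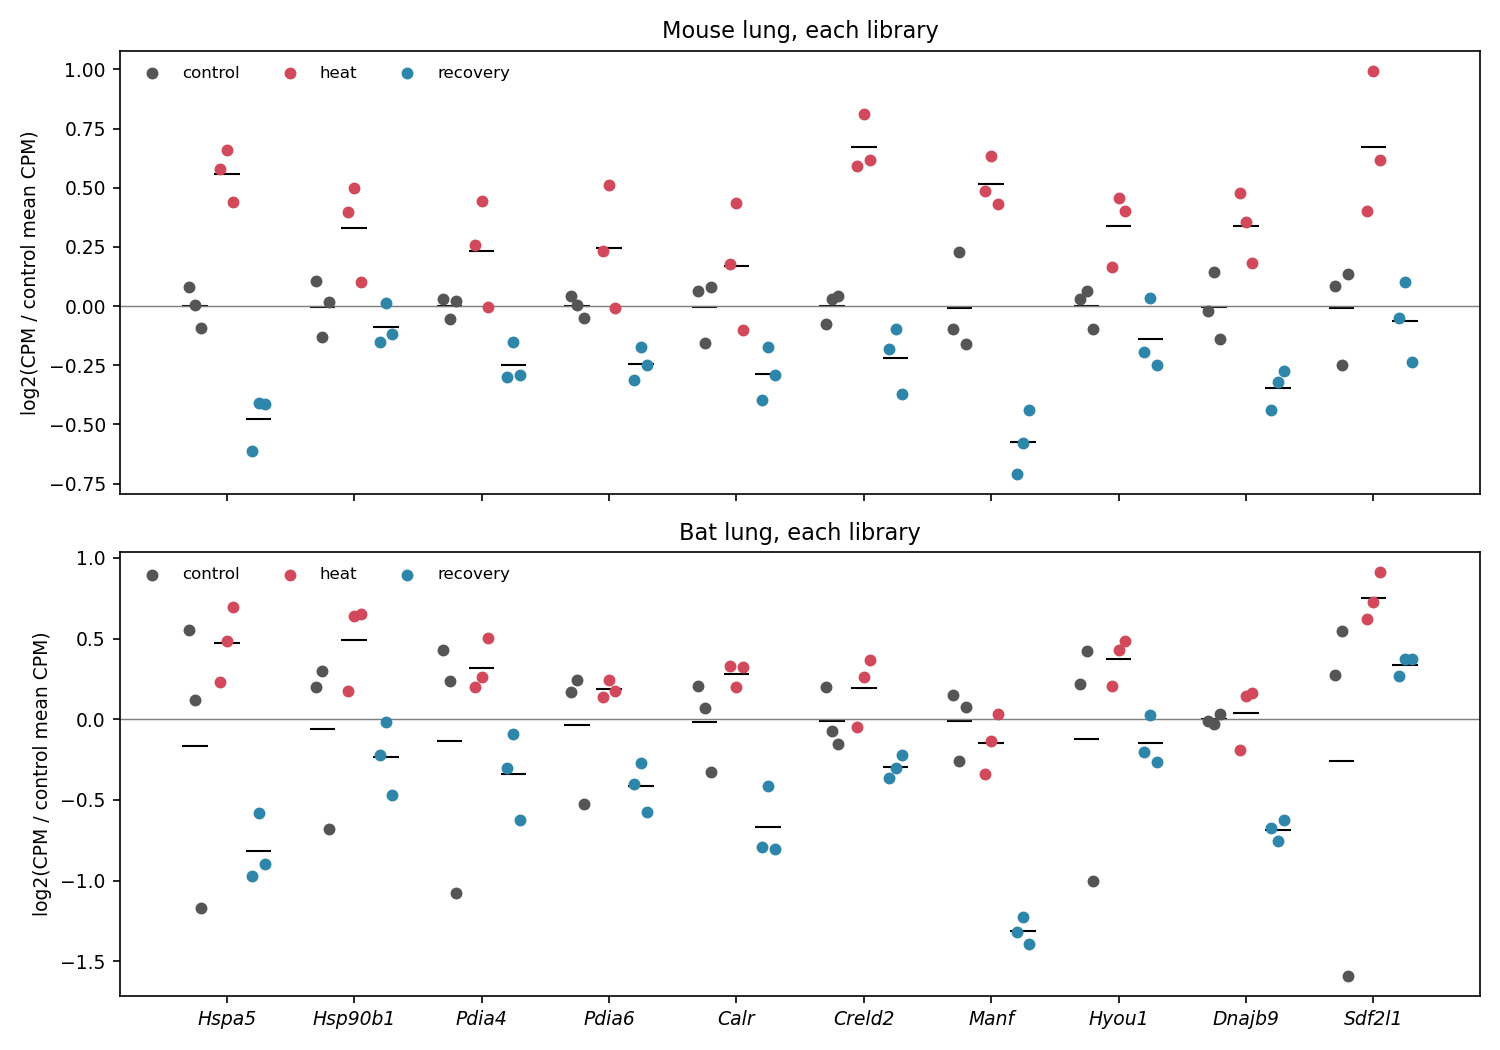
Level of each gene in each lung library, as log2 of its CPM over the mean CPM of the control libraries of its species, for mouse (top) and bat (bottom); points are libraries and short lines are group means of the log2 values. In the mouse, the 10 genes are highest after heat and lowest after recovery in most libraries, and in the bat 1 control library, replicate 3, lies far below the other 2 for Hspa5, Pdia4, Hyou1 and Sdf2l1.

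These 4 genes were those that rose among the 10 with heat in mouse lung, where 3.14% of all genes tested rose. All 10 estimates were above 0, with a median of 0.35, against -0.01 over all genes. The other 6 did not pass. Hyou1, the large HSP70-like exchange factor of BiP, had a change of 0.35 (adjusted p = 0.0576), Dnajb9, a J-domain co-chaperone of BiP, 0.35 (adjusted p = 0.071), and Hsp90b1, the ER member of the HSP90 family, 0.34 (adjusted p = 0.0779). The isomerases Pdia6 and Pdia4 had 0.26 and 0.25, and Calr, the calcium-binding lectin chaperone calreticulin, had 0.19 (adjusted p = 0.394). Heat and control libraries did not overlap for 6 genes, the 4 that rose with Hyou1 and Dnajb9; 12.7% of all genes were separated in that direction. With single libraries left out, 1 gene rose when control 3 was dropped, 2 when control 1, heat 1 or recovery 2 was, and 8 when heat 3 was. Creld2 passed under each of the 14 alternatives tried and Hspa5 under 13 of them, Manf under 9 and Sdf2l1 under 4.

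Between heat and recovery all 10 genes fell in mouse lung, where 5.84% of all genes tested fell, and for each of the 10 the recovery libraries lay below the heat libraries, as for 16.1% of all genes. Manf fell by 1.09 (SE 0.12, adjusted p = 0.000573) and Hspa5 by 1.04 (SE 0.089, adjusted p = 0.000195), to 0.469 and 0.488 of their heat levels. Creld2 fell by 0.89, Sdf2l1 by 0.75 and Dnajb9 by 0.69. The other 5 had smaller decreases: Pdia6 fell by 0.51, Pdia4 by 0.49, Hyou1 by 0.48, Calr by 0.47 and Hsp90b1 by 0.43 (adjusted p from 0.0117 to 0.0326). Hsp90b1, the smallest decrease, had 611.9, 656.7 and 498.7 CPM after heat and 418.0, 469.0 and 427.9 after recovery. The count was 4 without recovery 1 or without recovery 3, the only single omissions that moved it by more than 1.5 times; Hspa5, Manf, Creld2 and Dnajb9 passed under each of 14 alternatives.

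Against control, all 10 recovery estimates were below 0, with a median of -0.25, and none passed in edgeR. Across the genome 0.0103% of the genes tested fell in this comparison, so few genes of any kind passed. Of the 10, 6 had an unadjusted p below 0.05, as did 7.14% of all genes, and DESeq2 called 2, Hspa5 and Manf, beside 0.324% of all genes that it called lower. Hspa5 was at -0.47 (SE 0.088, adjusted p = 0.147) and Manf at -0.57 (SE 0.12, adjusted p = 0.181). For 7 genes every recovery library lay below every control library, as for 8.24% of all genes.

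Other genes of the ER were measured beside them, from lists of related function. With heat in mouse lung, 1 of 12 genes of the unfolded protein response sensors and transcription factors rose (Ern1, the Ire1 sensor, by 0.41), and 1 of 21 further ER folding factors (Fkbp14, a prolyl isomerase, by 0.83), beside 3.14% of all genes. Of 17 genes of ER-associated degradation 2 rose, Herpud1, a scaffold of the degradation complex, by 0.74, and Edem1, which directs misfolded glycoproteins to it, by 0.46. The list medians were 0.14 for sensors and factors, 0.07 for folding factors, 0.11 for degradation and 0.08 for 14 translocation genes. From heat to recovery, where 5.84% of all genes fell and 5.46% rose, 4 of the 12 sensors and factors fell: Xbp1 by 0.49, Atf4 by 1.13, Ddit3 by 0.98 and Creb3l2 by 0.36. In ER-associated degradation Herpud1 fell by 0.97, Edem1 by 0.61 and Edem3 by 0.24, while Erlec1 rose by 0.42. Fkbp14 fell by 0.59, and of the translocation genes Spcs2 fell by 0.33 and Srprb by 0.42.

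The cytosolic heat shock proteins of the same libraries changed on another scale. In mouse lung 7 of 10 rose with heat, with a list median of 3.07, and 8 of 10 fell from heat to recovery. Their summed level in the heat libraries was 11402 CPM in replicate 1, 5475 in replicate 2 and 29401 in replicate 3, against at most 2333 in control. The summed level of the 10 ER chaperones ran in the opposite order, with 2166, 2428 and 1921 CPM, against 1631 to 1768 in control. Heat library 2 was the highest of the 3 in 9 of the 10 genes and heat library 3 the lowest in 7. With 3 libraries this order is a description only.

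**Figure D2:**
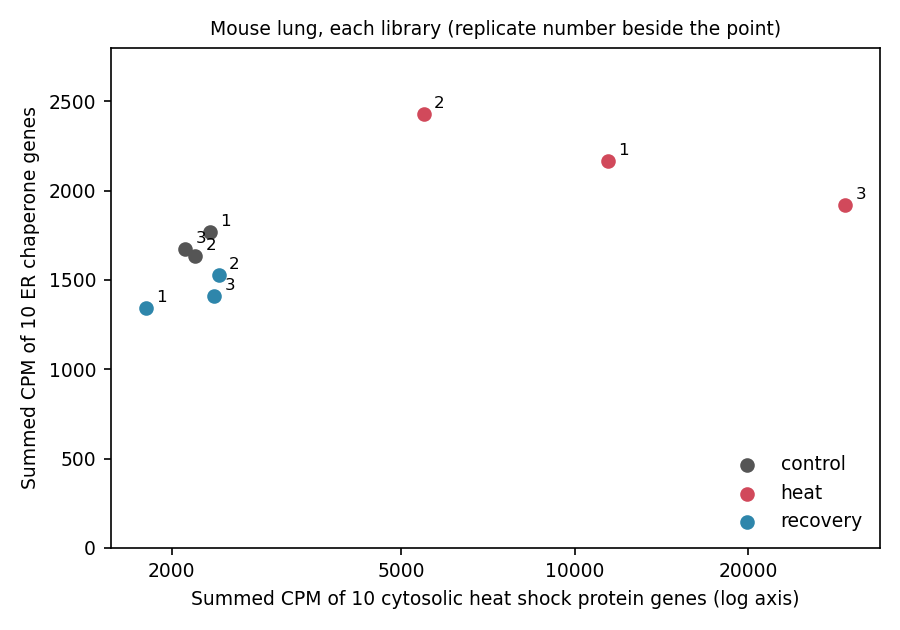
Mouse lung libraries by the summed CPM of 10 cytosolic heat shock protein genes (x, log axis) and of the 10 ER chaperone genes (y); numbers are replicate numbers. The 3 heat libraries lie above and to the right of the others, and among them the library with the most cytosolic chaperone RNA, replicate 3 at 29401 CPM, has the least ER chaperone RNA, 1921 CPM.

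Cell type markers of mouse lung were summed per library. Plasma cells are rich in ER chaperones, and 9 of their markers summed to 253 to 263 CPM in control, 173 to 232 after heat and 246 to 276 after recovery. Among the heat libraries they were 193.6 in replicate 1, 231.7 in replicate 2 and 173.2 in replicate 3, the same order as the chaperone sums. Fibroblast and matrix markers had that order too, at 3904, 4020 and 3195 CPM in heat replicates 1, 2 and 3. They summed to 3589 to 3844 CPM in control and 3065 to 3494 after recovery. The other marker lists did not have that order. Lung epithelial markers summed to 15502 to 16254 CPM in control, 16411 to 17467 after heat and 15088 to 17425 after recovery. Of 9 B cell markers 5 fell with heat, beside 2.72% of all genes. From heat to recovery, the step in which all 10 chaperones fell, 4 of 8 neutrophil markers tested fell (median of the 8 -1.31), and neutrophil markers summed to 69.9 to 92.2, 83.0 to 216.1 and 40.1 to 108.1 CPM in the 3 groups. Skeletal muscle fibre markers summed to 592 to 3575 CPM in control, 850 to 1799 after heat and 703 to 1543 after recovery. The part of these cells in the result was not tested.

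Mouse muscle showed no called ER chaperone in any comparison. Hspa5 had 140.7, 114.2 and 115.9 CPM in control, 107.9, 155.9 and 141.5 after heat and 142.3, 160.7 and 158.4 after recovery. Control and heat overlapped, and the 3 recovery libraries lay above the control libraries. Hsp90b1 had 113.3, 95.3 and 86.6 CPM in control, 97.0, 113.5 and 114.1 after heat and 129.0, 129.3 and 113.7 after recovery, an order in which recovery was highest. After recovery the change from control was 0.32 (SE 0.16) for Hspa5 and 0.33 (SE 0.13) for Hsp90b1 (adjusted p = 0.999 and 0.958).

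With heat, 5 of the 10 estimates in mouse muscle were above 0 and 5 below, from -0.52 for Pdia4 to 0.14 for Hsp90b1, with a median of 0.00. The edgeR count of 0 stood beside 0.293% of all genes that rose and 0.135% that fell; none of the 10 had an unadjusted p below 0.05, as 30% of all genes did, and DESeq2 called none of them, with 6.43% of all genes higher and 8.26% lower. Against control after recovery, 1 had an unadjusted p below 0.05 (4.95% of all genes), DESeq2 called none of the 10, and Hspa5, Hsp90b1 and Hyou1 were separated upwards, as were 5.64% of all genes; 0.0676% of genes rose. From heat to recovery none of the 10 had an unadjusted p below 0.05 (19.7% of all genes did) and DESeq2 called none, beside 0.282% of genes that rose and 0.186% that fell; Calr and Hyou1, each at 0.20, were separated upwards, as were 15.4% of all genes.

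The same muscle libraries held a cytosolic response. Of 10 cytosolic heat shock protein genes 6 rose with heat (list median 3.36), among them Hspa1b by 8.33 and Hspa1a by 7.89, the inducible HSP70 genes. Marker sums differed between these groups too: 9 B cell markers summed to 178.5, 130.9 and 46.5 CPM in control, 1.94, 14.7 and 16.5 after heat, and 311.3, 2.25 and 0.895 after recovery. Fibroblast and matrix markers summed to 1706 to 3721 CPM in control and 1161 to 1602 after heat, and muscle fibre markers to 172520 to 292590 and 295615 to 326712. What this makeup contributes to the muscle values was not tested.

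Mouse blood had 2 libraries per group. Hspa5 had 52.4 and 70.8 CPM in control, 98.7 and 115.9 after heat, and 33.5 and 46.5 after recovery, and the groups did not overlap. It fell between heat and recovery by 1.43 (SE 0.23, adjusted p = 0.0356), to 0.372 of the heat level. Hsp90b1 had 52.9 and 87.5 CPM in control, 91.5 and 151.3 after heat, and 43.4 and 50.3 after recovery, so it too was highest after heat and lowest after recovery. Its change from heat to recovery was -1.37 (SE 0.33, adjusted p = 0.0818).

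Hspa5 was the 1 gene of the 10 that fell from heat to recovery in mouse blood, where 2.7% of all genes tested fell. All 10 estimates were below 0, with a median of -0.73, and 8 genes were separated downwards, as were 26.4% of all genes. The median was -0.23 without heat 2, with 8 estimates below 0, and -1.15 without heat 1. With heat, 9 of 10 estimates were above 0, led by Hspa5 at 0.80 and Hsp90b1 at 0.79 (adjusted p = 0.199 and 0.347), with a median of 0.31. Without heat 2 the median was -0.22, with 3 estimates above 0 and 7 below; it was 0.14 without control 1, 0.56 without control 3 and 0.70 without heat 1. No gene of the genome passed in edgeR with heat in mouse blood (0% in either direction); 1 of the 10, Hspa5, had an unadjusted p below 0.05 (14.8% of all genes), and DESeq2 called 1, Hspa5, beside 2.68% of all genes that it called higher. Hspa5, Hsp90b1 and Dnajb9 were separated upwards, as were 20.5% of all genes. Recovery against control likewise gave 0 calls in edgeR (0% of all genes) and DESeq2, with 1 unadjusted p below 0.05 (8.93% of all genes) and 8 of the 10 separated downwards, as were 26.8% of genes. Of the other ER genes in mouse blood, Herpud1 was the 1 of 17 in degradation that fell from heat to recovery, by 0.69. The decrease of Hspa5 no longer passed without control 1, control 3, recovery 1 or recovery 2 (adjusted p from 0.0713 to 0.318), while its estimate stayed between -1.68 and -1.20 over the 11 alternatives, and the count was 6 without heat 1; an arm of 1 library was then assumed to vary like the other groups.

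In mouse blood 1 library of each of the first 2 groups stood high in every one of the 10 genes. Control 3 exceeded control 1, and heat 2 exceeded heat 1, in 10 of 10. Sdf2l1 had 4.85 CPM in control 3 and 8.35 in heat 2, against 1.38 to 1.72 in the other 4 libraries. The same 2 libraries had the highest macrophage and monocyte marker sums, 1491 and 2412 CPM against 444 to 672, and the highest fibroblast and matrix marker sums, 1648 and 3550 CPM against 51.6 to 394. Their erythroid sums, 398344 and 368264 CPM, were the lowest, against 570212 to 912483. These CPM are divided by TMM scaling factors, which were 1.38 in control 3 and 1.40 in heat 2. The other blood libraries had factors of 0.739 to 1.08, so the sums are not shares of reads and part of their spread is scaling. The part of these cells in the blood values was not tested.

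**Figure D3:**
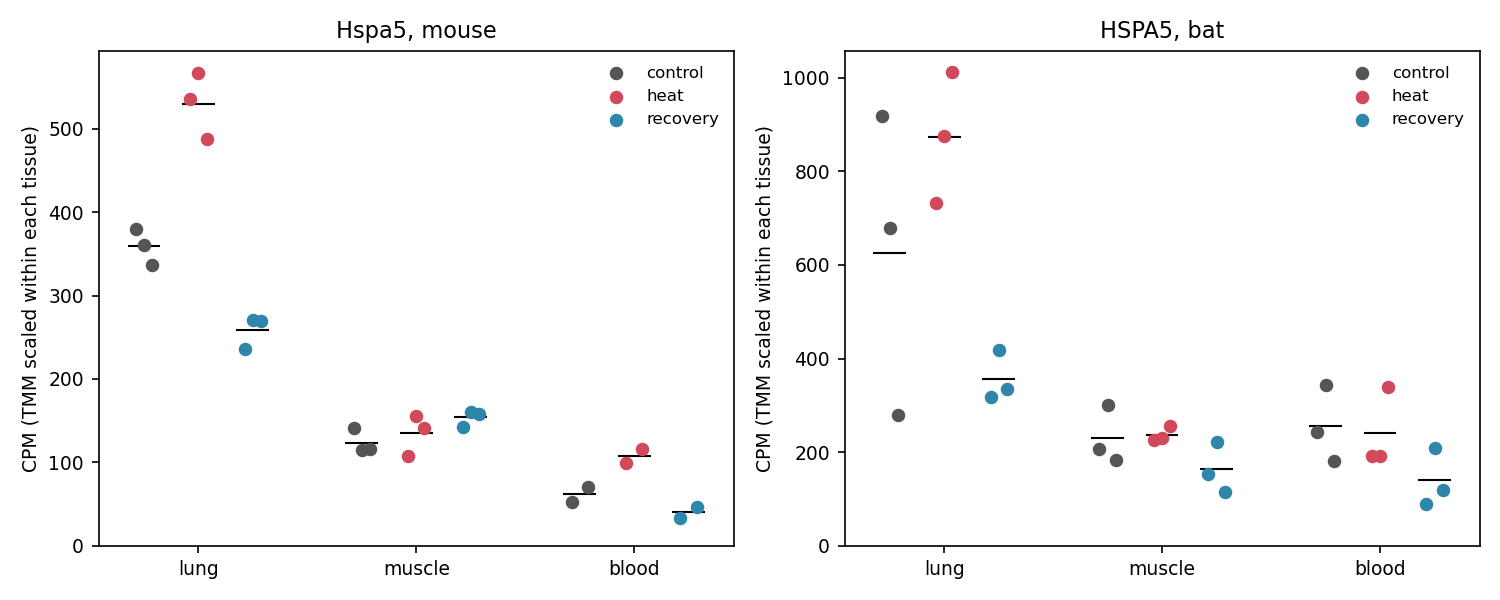
Hspa5 level in each of the 51 libraries, as CPM scaled within each tissue of each species; points are libraries, colours are conditions and short lines are group means. In mouse lung and blood the heat libraries are highest and the recovery libraries lowest without overlap, in mouse muscle the groups lie close together, and in bat lung the control libraries spread from 278.2 to 917.4 CPM.

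In bat lung, levels after recovery were lower than after heat for all 10 genes, while the step from control to heat was not distinguishable. Hspa5 had 917.4, 678.3 and 278.2 CPM in control, 732.0, 875.3 and 1012 after heat, and 318.0, 417.3 and 334.8 after recovery. Control overlapped both other groups, with control 3 the lowest of the 9 libraries, and heat and recovery did not overlap. The heat to recovery change was -1.29 with a wide error (SE 0.35, adjusted p = 0.244).

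Manf had 75.7, 57.0 and 71.9 CPM in control, 53.9, 62.0 and 69.6 after heat, and 27.4, 29.2 and 25.96 after recovery. Control and heat overlapped, and the recovery libraries lay close together far below both. Manf fell by 1.31 from control to recovery (SE 0.15, adjusted p = 0.0225) and by 1.17 from heat to recovery (SE 0.15, adjusted p = 0.0314), to 0.404 and 0.445 of those levels. It was the 1 gene of the 10 that fell in each of these comparisons, where 0.0313% and 0.11% of all genes fell.

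Dnajb9 and Calr came next in bat lung. Dnajb9 had 65.6, 64.8 and 67.6 CPM in control, 57.9, 72.9 and 73.7 after heat, and 41.3, 39.1 and 42.9 after recovery. Calr had 353.9, 322.6 and 245.3 CPM in control, 385.4, 353.0 and 383.8 after heat, and 177.6, 230.9 and 176.3 after recovery. For both, recovery was lowest without overlap; from heat to recovery the changes were -0.73 for Dnajb9 (SE 0.13, adjusted p = 0.0822) and -0.94 for Calr (SE 0.17, adjusted p = 0.0834). All 10 genes were separated downwards from heat to recovery, as were 12.4% of all genes, and 4 were from control to recovery, as were 10.6%. Sdf2l1 alone had a recovery estimate above control, 0.32 (SE 0.41).

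DESeq2 called 3 of the 10 from control to recovery in bat lung and 4 from heat to recovery, adding Dnajb9 and Calr to both and Hspa5 to the second, beside 3.37% and 1.36% of all genes that it called lower. Without single libraries, the Manf decrease from control passed only without control 3 or heat 1 (adjusted p up to 0.176), and that from heat only without control 2, control 3 or heat 1 (adjusted p up to 0.251); the count from heat to recovery was 5 without control 3 and 2 without heat 1.

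From control to heat in bat lung, 9 of the 10 estimates were above 0, with a median of 0.30, and no gene of the genome passed in edgeR (0% in either direction). None of the 10 had an unadjusted p below 0.05 (8.68% of all genes did) and DESeq2 called none. Without control 3 the median was 0.10, with 7 estimates above 0 and 3 below. Hsp90b1 was at 0.51 (SE 0.25) and Sdf2l1 at 0.74 (SE 0.41). Sdf2l1 was the 1 gene whose heat libraries, 15.4, 16.6 and 18.8 CPM, all lay above control, at 12.1, 14.6 and 3.33, as did those of 5.01% of all genes.

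In bat muscle Creld2 was the 1 gene that passed. It had 12.9, 16.5 and 9.32 CPM in control, 5.32, 8.06 and 6.72 after heat, and 4.996, 5.89 and 6.99 after recovery. All control libraries lay above all others, and heat and recovery overlapped; from control to heat 12.1% of all genes were separated downwards. Creld2 fell by 1.11 from control to recovery (SE 0.26, adjusted p = 0.0469), to 0.462 of the control level. From control to heat its change was -0.94 (SE 0.26, adjusted p = 0.122).

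No other of the 10 fell from control to recovery in bat muscle, where 1.5% of all genes fell. Leaving out a library kept this call only for control 3 (adjusted p = 0.0384), and over the other 8 omissions the adjusted p ran from 0.0529 to 0.165. Pdia4 was the other gene separated downwards, as were 12.7% of all genes, at -0.56 (SE 0.19, adjusted p = 0.126), from 24.4, 36.8 and 25.05 CPM in control to 20.2, 21.7 and 16.5 after recovery. With heat, 0 of the 10 passed in edgeR, beside 0.0376% of genes that fell and 0% that rose; 1 had an unadjusted p below 0.05 (17.8% of all genes) and DESeq2 called 1 (4.22% of all genes lower), in both cases Creld2. From heat to recovery 0 passed in edgeR and 0 in DESeq2, beside 0.00627% of genes that fell, with 1 unadjusted p below 0.05 (Pdia4, -0.58; 10.5% of all genes). Hspa5 in bat muscle had 206.2, 301.1 and 183.5 CPM in control, 226.2, 229.2 and 254.9 after heat and 153.9, 222.2 and 114.3 after recovery, the last group below the heat libraries but overlapping control. From heat to recovery 3 of the 10 were separated downwards, as were 8.13% of all genes.

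Bat blood gave no call on any gene of the genome in edgeR in the 3 comparisons (0% in each direction), and DESeq2 called none of the 10. The spread between libraries was the widest of the 6 fits, with a biological coefficient of variation of 0.536, against 0.161 in mouse lung. After recovery all 10 estimates against control were below 0, with a median of -0.86, and 5 had an unadjusted p below 0.05, as did 5.29% of all genes. Without control 1, recovery 1 or recovery 3, 1 of the 10 estimates was above 0. Separated downwards were 5 of the 10, as were 6.19% of all genes. Hsp90b1 had 405.2, 903.2 and 227.0 CPM in control, 229.6, 356.0 and 759.9 after heat, and 154.5, 135.5 and 192.8 after recovery. The recovery libraries were below all others, and control and heat each spanned a wide range; the change from control was -1.67 (SE 0.58, adjusted p = 0.879).

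Within bat blood recovery, library 2 stood apart from the other 2 in several genes. Creld2 had 63.4 CPM there against 10.4 and 14.7, Calr 243.1 against 72.5 and 99.6, and Dnajb9 6.86 against 14.5 and 16.0. Hsp90b1 was lowest in the same library. With heat, the 10 estimates were below 0 with a median of -0.27, 0 unadjusted p below 0.05 (2.19% of all genes) and 2 genes separated downwards, as were 5.86% of all genes. The median with heat was -0.13 without control 2 and -0.17 without heat 1, each with 3 estimates above 0, and -0.45 without heat 3 and -0.44 without control 3. From heat to recovery 2 had an unadjusted p below 0.05 (10.4% of all genes) and 4 were separated downwards, as were 8.52% of genes.

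**Figure D4:**
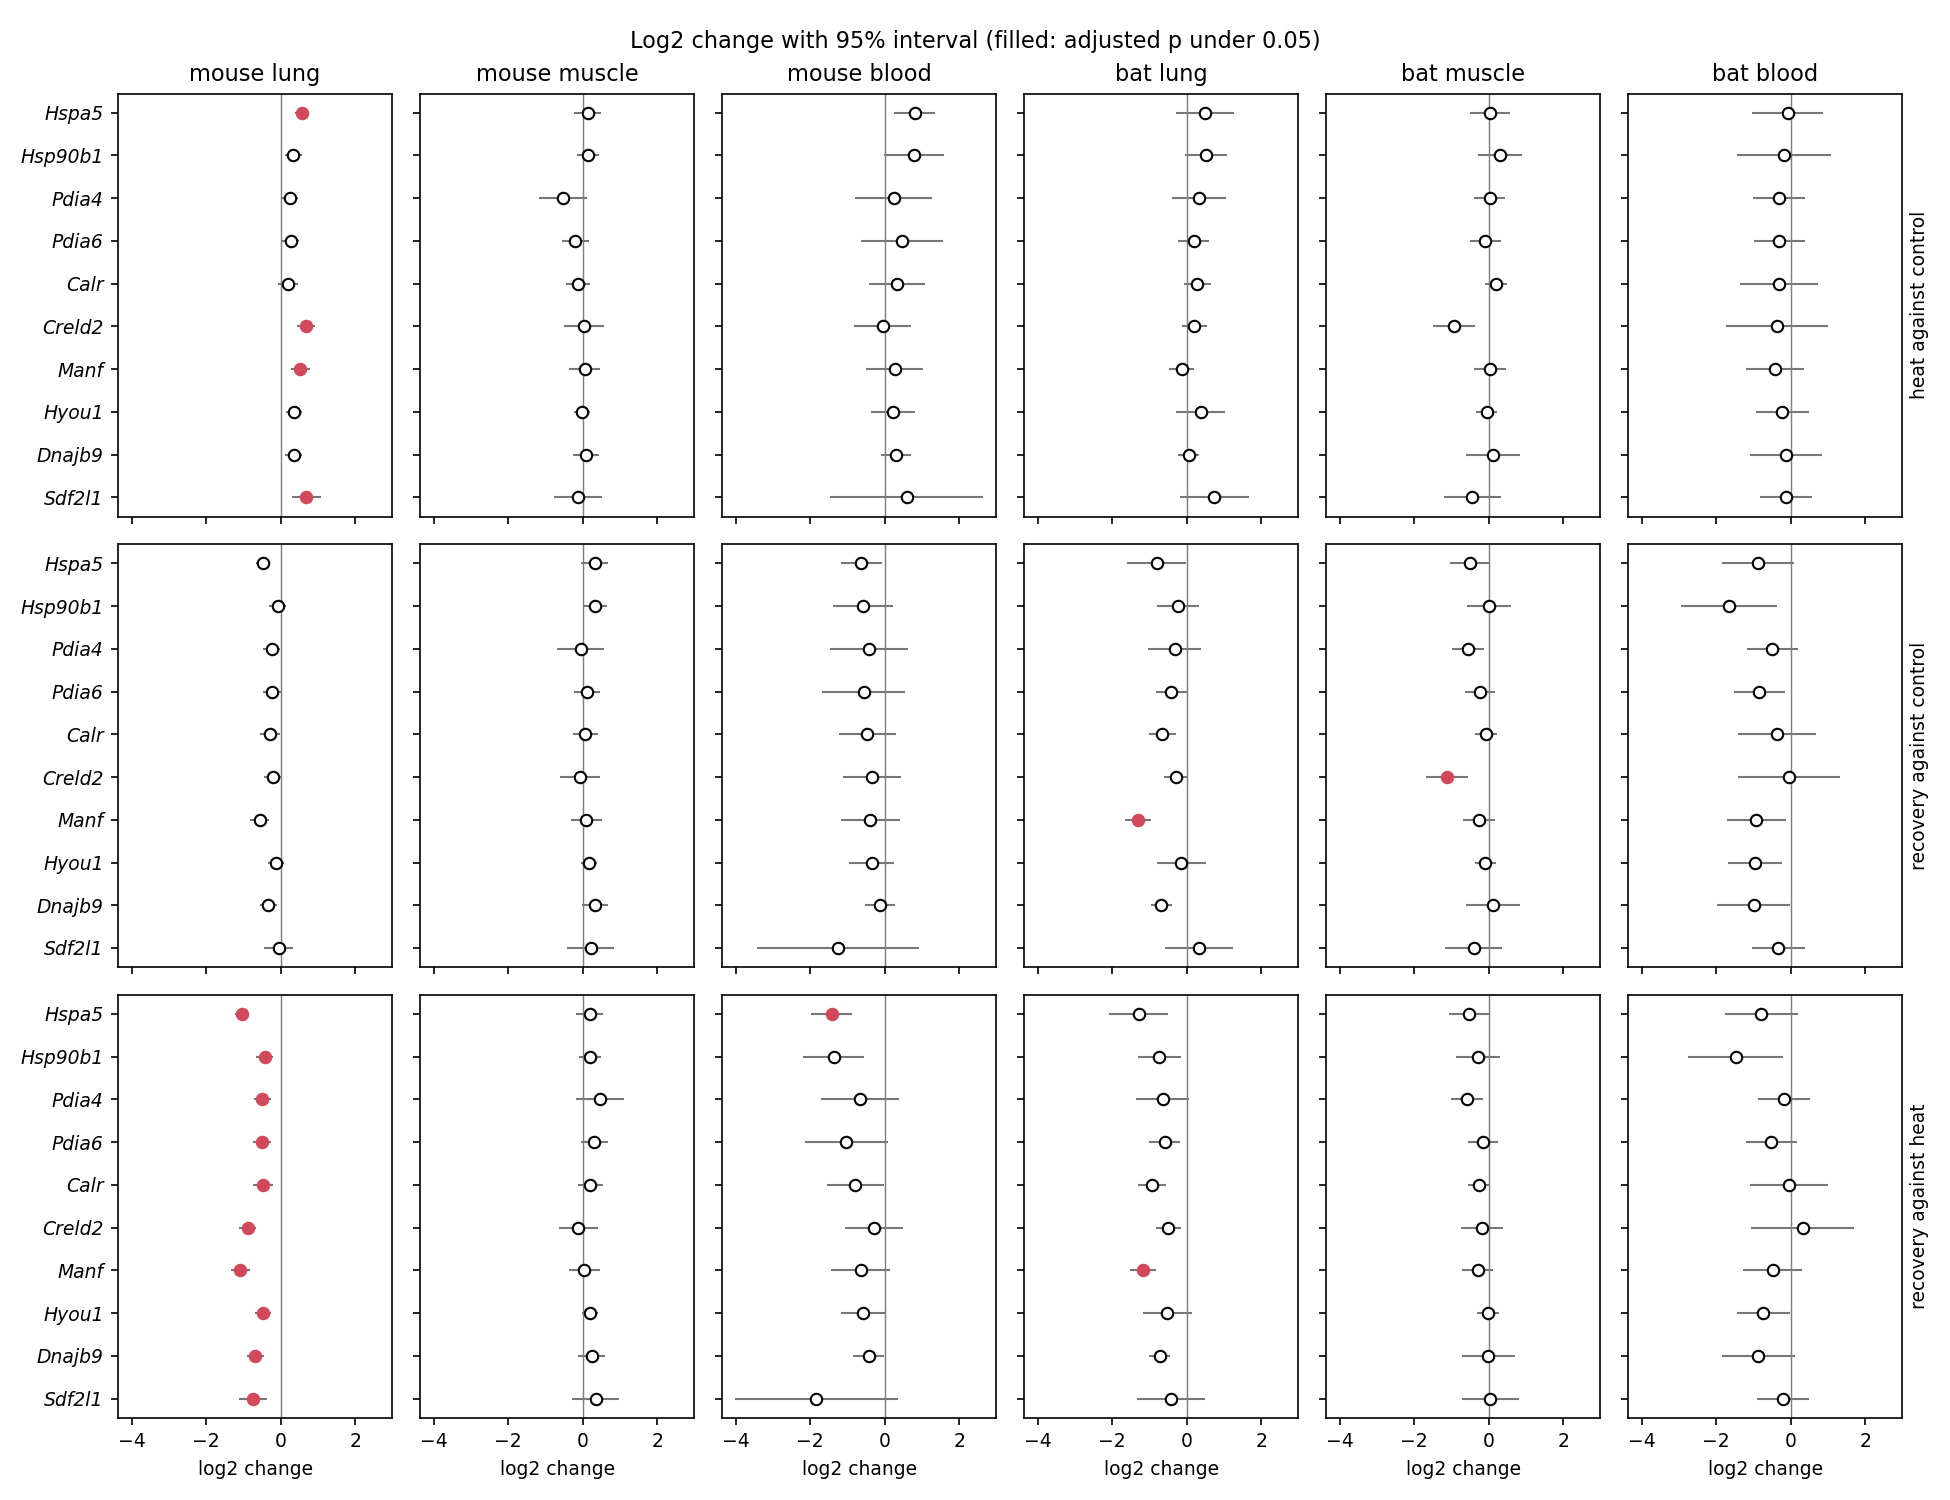
Log2 change of each gene with its 95% interval in the 3 comparisons (rows) and 6 species and tissues (columns); filled red points passed at an adjusted p below 0.05 in edgeR. Mouse lung has 4 such points with heat and 10 from heat to recovery, and mouse blood, bat lung and bat muscle have 1, 2 and 1 over their 3 comparisons.

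Whether the change differed between tissues was tested on the difference itself, in 1 fit over the 3 tissues of each species. In the mouse, 28 of 90 differences had an unadjusted p below 0.05 and 4 passed, all 4 in the step from heat to recovery. The change in blood minus that in muscle was -1.60 for Hspa5 (SE 0.25, adjusted p = 0.00137), -1.55 for Hsp90b1 (SE 0.30, adjusted p = 0.00603) and -1.33 for Pdia6 (SE 0.38, adjusted p = 0.0496), where 5.65% of all genes passed. The change of Hspa5 in muscle minus that in lung was 1.20 (SE 0.22, adjusted p = 0.0482), where 0.0885% of genes passed. With DESeq2's size factors the differences of Pdia6 (adjusted p = 0.0519) and of Hspa5 between muscle and lung (adjusted p = 0.0548) no longer passed. No difference between lung and blood passed for the 10 in the mouse, where 1.16% of genes passed in that step. In the bat 0 of 90 passed with either scaling, and 8 had an unadjusted p below 0.05. The share of all genes below that unadjusted p was not counted for these differences in either species. Over all bat genes, muscle against lung gave 0%, 0.559% and 0.00981% of genes in the steps control to heat, control to recovery and heat to recovery, blood against lung 0%, 0.0147% and 0.0147%, and blood against muscle 0%, 0.319% and 0.0196%.

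The species were compared on the difference of their changes, each scaled on its own table. Of 90 differences 0 passed in the joint edgeR fit, in which 9 had an unadjusted p below 0.05. The share of all rows tested below that unadjusted p was not counted. Rows were matched between the tables where a bat row carries a mouse gene identifier, and the ER chaperones were added to them. Other bat rows, named by human identifiers, were not matched. Of 654 rows matched in this way, 86 in lung, 55 in muscle and 67 in blood were tested, the ER chaperones among them. Of these rows, 2.33%, 0% and 1.16% passed in lung in the steps control to heat, control to recovery and heat to recovery. The shares were 7.27%, 0% and 0% in muscle, and 0%, 0% and 1.49% in blood. The separate lung fits tested 19438 genes in the mouse and 19149 in the bat. The matched rows are thus a small part of the genes measured, and their shares are no background for the genome. Adjusted p-values of the joint fit were taken over the matched rows tested in each tissue. An exact two-sided permutation test, which reassigned libraries between the conditions compared within each species, gave 6 raw p-values below 0.05 in 90. It assumes that neither species changed between the conditions, so it does not test whether real changes in both species were equal. The smallest p it allows is 0.005 in lung and muscle and 0.0167 in blood, and the gene at 0.005, Calr in muscle, had an adjusted p of 0.45, so this design could hardly pass the threshold after adjustment. The lowest adjusted p was that of Manf in lung with heat, where the bat change minus the mouse change was -0.66 (SE 0.22, 95% interval -1.12 to -0.20, adjusted p = 0.0665). For Hspa5 in lung with heat the difference was -0.08, with an interval from -0.92 to 0.77. From lower to upper bound, the median width of these intervals was 1.25 in lung, 1.40 in muscle and 2.91 in blood for the step to recovery from heat. An interval covers only part of that width on either side of its estimate, but passing also required adjustment over the rows tested. From heat to recovery, differences of -1.04 for Pdia4 in muscle and 1.63 for Sdf2l1 in blood did not pass (joint edgeR fit, adjusted p = 0.244 and 0.603). Differences of that size were thus not resolved in those tissues.

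Control levels were compared between tissues after scaling over all 3 tissues, which gives other CPM values than those above. This scaling assumes that most genes do not differ; the median gene was shifted by -0.08 for mouse muscle against lung, -0.14 for blood against lung and -0.25 for blood against muscle. In the mouse, Hsp90b1 was highest in lung, with 248 ± 20.4 CPM (SD, n = 3), against 119 ± 14.4 in muscle (n = 3) and 135 ± 49.4 in blood (n = 2), and muscle and blood did not differ beyond their spread. In muscle 6 genes were lower than in lung (9 with DESeq2's size factors), Hsp90b1, Pdia4, Pdia6, Creld2, Manf and Hyou1, with differences from -1.14 for Pdia4 to -0.72 for Hyou1, where 28% of all genes tested were lower. In blood 7 were lower than in lung, Hspa5, Hsp90b1, Pdia6, Creld2, Manf, Hyou1 and Dnajb9, where 34.1% of genes were. Against muscle, Pdia4 (by 1.02) and Sdf2l1 (by 1.51) were higher in blood, where 28.4% of genes were, and Dnajb9 (-0.85) was lower, where 38.6% of genes were.

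In the bat the median gene was shifted by -0.60, -0.38 and -0.03 in the same 3 comparisons. Dnajb9 had 93.8 ± 49.8 CPM in muscle, 40.2 ± 1.93 in lung and 23.3 ± 9.02 in blood (SD, n = 3 each). It was higher in muscle than in lung by 1.22 (SE 0.34, adjusted p = 0.00398), where 20.1% of genes were higher, and its level in blood minus that in muscle was -2.01 (SE 0.35, adjusted p = 2.26e-05). Pdia4, Pdia6 and Calr were lower in muscle than in lung, where 35.8% of genes were, and Pdia4, Pdia6, Manf, Hyou1 and Dnajb9 lower in blood than in lung, where 35.6% were; Dnajb9 in this last comparison had an adjusted p of 0.05 to 3 digits and did not pass with DESeq2's size factors. Against muscle, Calr and Sdf2l1 were higher in blood, where 30.5% of genes were, and Hyou1 lower with Dnajb9, where 33.9% were. Hspa5 passed for no pair of bat tissues, and had 389 ± 217 CPM in lung, 389 ± 112 in muscle and 240 ± 71.0 in blood.

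**Figure D5:**
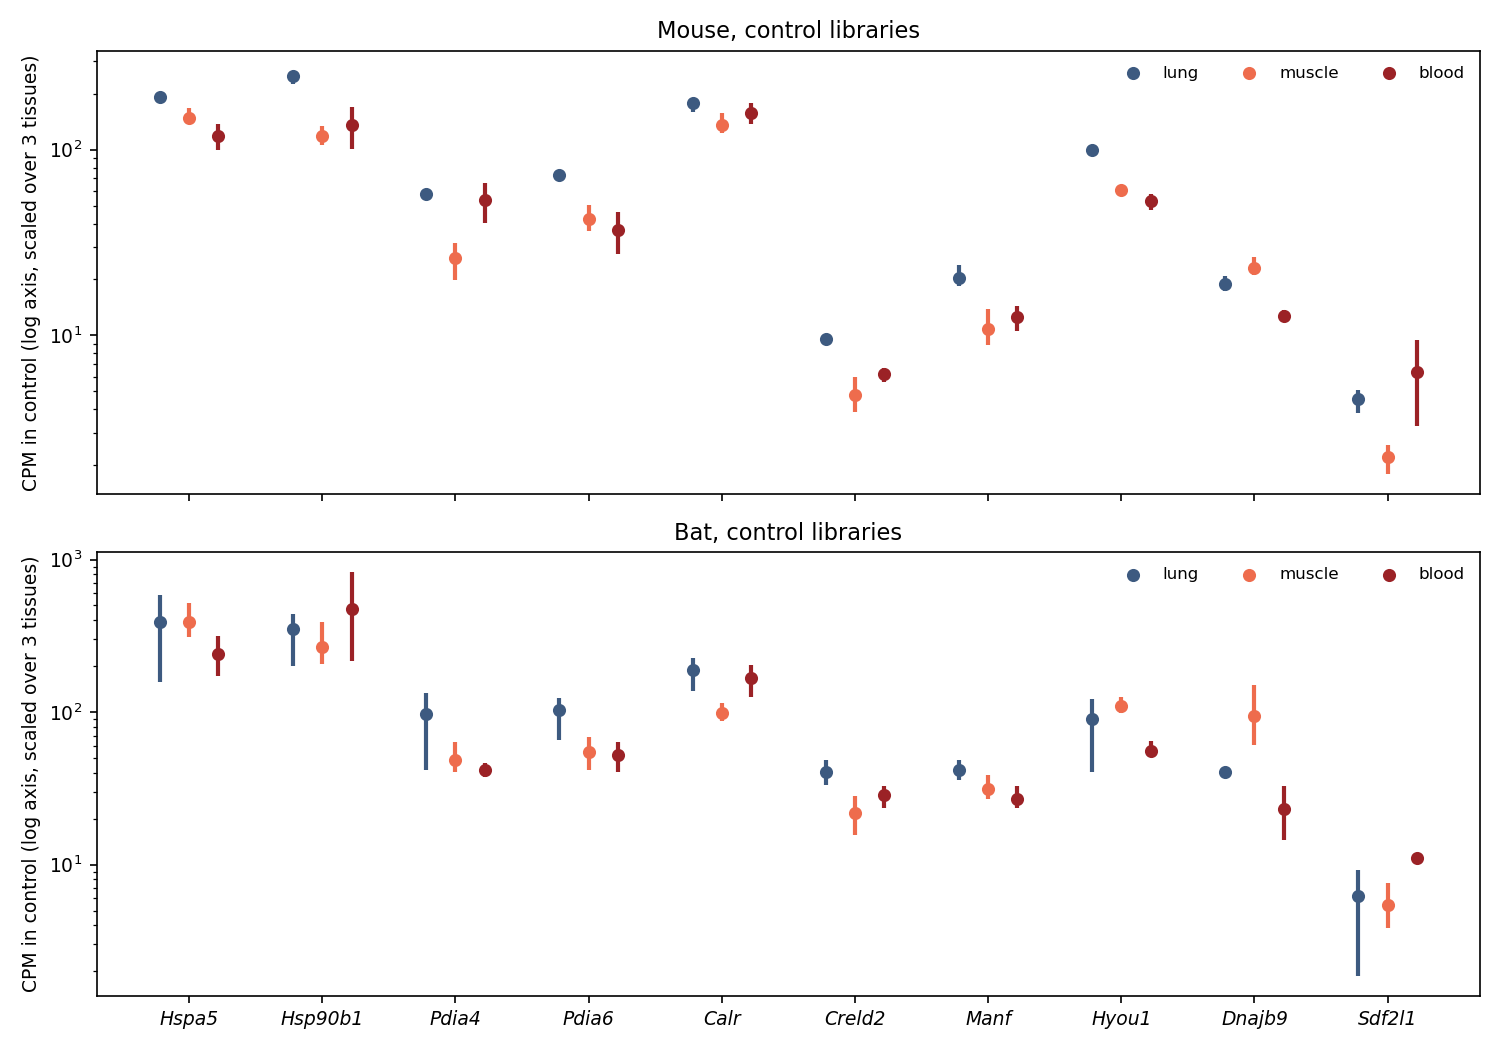
Control level of each gene in lung, muscle and blood, as CPM scaled over the 3 tissues of a species on a log axis; points are means and bars run from the lowest to the highest library. Mouse lung is highest for Hsp90b1, Pdia6, Creld2, Manf and Hyou1, and bat Dnajb9 is highest in muscle, with no overlap with lung or blood.

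Levels of different genes can be set side by side only per length. In mouse lung control, per kb of annotated exon, Calr had 116 ± 10.3 and Hsp90b1 115 ± 9.46 CPM (SD, n = 3), which did not differ beyond their spread. Hspa5 followed at 85.0 ± 5.16, then Pdia4 at 45.1 ± 1.42 and Pdia6 at 36.4 ± 1.14. Hyou1 had 25.7 ± 1.47, Dnajb9 13.9 ± 1.38, Creld2 13.2 ± 0.592, Manf 10.9 ± 1.63 and Sdf2l1 7.73 ± 1.07 CPM per kb. The length counts every annotated exon base of a gene, 3524 for Manf and 1366 for Creld2. Before division Manf had 38.3 CPM and Creld2 18.0, so the order of these genes depends on that length. After heat, Hspa5 in mouse lung had 125 ± 9.48 CPM per kb, beside 133 ± 24.5 for Calr and 146 ± 20.2 for Hsp90b1.

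How the 10 genes moved among themselves was described by correlations of log2 CPM centred within each tissue, which share library and condition and carry no test. Over 24 mouse libraries the median of 45 pairs was r = 0.76, from 0.36 for Pdia4 with Dnajb9 to 0.94 for Pdia6 with Calr. In mouse lung (9 libraries) the median was 0.86, in blood (6 libraries) 0.90 and in muscle (9 libraries) 0.54, where 41 of 45 pairs were positive and Creld2 with Dnajb9 was at -0.73. Over 27 bat libraries the median was 0.59, and again Creld2 with Dnajb9 was the lowest pair, at 0.00. Bat lung had a median of 0.77, muscle 0.53 and blood 0.74.

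Among 6669 mouse genes with at least 5 CPM on average in each tissue, the 5 most like Hspa5 over the 24 libraries were Nufip2 (r = 0.85), Dusp1 (0.85), Resf1 (0.85), St13 (0.84) and Mcl1 (0.83). Those most like the mean of the 10 were Pdia3 (0.87), Canx (0.86), Spred1 (0.86), Kdelr2 (0.85) and Adipor2 (0.83). Pdia3 is a disulfide isomerase that works with the lectin chaperones, Canx the membrane lectin chaperone calnexin, and Kdelr2 a receptor for the retrieval signal shown above. In the bat, 2 rows known by identifier alone were most like the mean over 27 libraries and 7546 rows, ENSG00000167004 (r = 0.86) and ENSG00000058668 (0.85).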

How the data were processed

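Gene-level read counts were used as deposited by the authors, who applied no normalization to them; each library has 1 column. The submitters' processing notes name STAR 2.7 for alignment and featureCounts for counting (its version, strand setting and filters are not given in the sources used here). They give the build GRCm39 for the mouse and bat samples alike and name no bat assembly. Each species and tissue was fitted with edgeR 4.0.16 (limma 3.58.1, R 4.3.3) over its 3 conditions: filterByExpr defaults (minimum count 10, total 15), TMM, robust quasi-likelihood test, Benjamini-Hochberg over all genes tested, threshold 0.05. Differences between tissues and species came from joint fits. Log2 CPM used a prior count of 2. Alternatives were DESeq2 1.42.0, its size factors in edgeR, no filter, fits of 2 groups, a block for replicate number and leaving out each library. The scripts were tested on simulated data. Mouse exon lengths, chromosomes and coding ends came from GENCODE M21 (GRCm38), an older build than the authors', so no coordinates are given. The text names all 10 genes, up to 4 passing genes per list by smallest p, and the 5 genes most alike. The 10 genes and the lists were chosen with earlier results of these data known.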

Additional observations from a re-analysis of the deposited data

Results flagged for a closer look

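Between mouse tissues 4 differences passed a test of the difference itself, all in the change from heat to recovery. For Hspa5 the change in muscle minus that in lung was 1.20 and the change in blood minus that in muscle was -1.60. For Hsp90b1 the change in blood minus that in muscle was -1.55, and for Pdia6 it was -1.33. In muscle the estimates of these 3 genes from heat to recovery were above 0 and did not pass, at 0.19 for Hspa5, 0.20 for Hsp90b1 and 0.31 for Pdia6. No group has more than 3 libraries, so single libraries were not screened for outliers.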

How the results depend on the processing

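No estimate changed sign among the genes that passed, and DESeq2's size factors in edgeR changed no call in the 18 comparisons within a tissue. Of the counts reported, DESeq2 gave 7 genes in mouse lung with heat (4 in edgeR), 2 in recovery against control (0), 1 in mouse blood with heat (0) and 2 from heat to recovery (1). It also called more genes of the genome. In mouse lung it called 6.36% higher with heat (3.14% in edgeR) and 0.324% lower in recovery against control (0.0103%). In mouse blood it called 2.68% higher with heat (0%) and 7.18% lower from heat to recovery (2.7%). In the bat it gave 3 in lung for recovery against control (1), 4 for recovery against heat (1) and 1 in muscle with heat (0). Fits of only the 2 groups compared gave 2, 1 and 0 in mouse lung with heat, mouse lung recovery against control and mouse blood recovery against heat, and 0, 3 and 0 in bat lung recovery against control, bat lung recovery against heat and bat muscle recovery against control. No filter on low counts gave 1 in mouse lung for recovery against control. With DESeq2's size factors, 2 rather than 4 tissue differences passed in the mouse. The cause of these shifts was not tested.

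Leaving out 1 library at a time gave 1 to 8 genes in mouse lung with heat, 0 to 2 in recovery against control (2 without heat 3) and 4 to 10 in recovery against heat. It gave 0 to 6 in mouse blood recovery against heat, 0 to 1 and 0 to 5 in bat lung recovery against control and against heat, and 0 to 1 in bat muscle recovery against control. The other 11 comparisons stayed at 0.

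The labels do not say what a replicate number marks, and in no tissue were all same-numbered pairs of libraries correlated above 0.1, the condition set for treating them as paired. The lowest was -0.16 in mouse lung, -0.41 in mouse muscle, -0.06 in mouse blood, -0.04 in bat lung and -0.40 in bat blood. Bat muscle came nearest: its 9 same-numbered pairs ran from 0.03 to 0.20, against -0.14 to 0.04 for other pairs, and the block kept the decrease of Creld2 there (adjusted p = 0.0442). With a replicate block the count was 3 in mouse lung with heat and 0 in mouse blood recovery against heat and in both bat lung comparisons with recovery; 5 calls on single genes were lost in all. In mouse blood the block was applied to recovery against heat alone, where both groups carry the same numbers. Control shares only number 1 with them. The scarcest values were those of Sdf2l1 in mouse muscle, 1.28 to 2.40 CPM. In mouse blood Sdf2l1 had 1.38 to 8.35 CPM.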

Other observations

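Among the mouse heat libraries, the one numbered 2 had the lowest summed level of the 10 cytosolic heat shock protein genes in each tissue and the highest summed level of the 10 ER chaperones. The cytosolic sums of heat 2 were 5475 CPM in lung, 5305 in muscle and 1533 in blood, against 11402 and 29401 in lung, 8492 and 13019 in muscle, and 3134 in blood. The ER chaperone sums of heat 2 were 2428 CPM in lung, 526 in muscle and 554 in blood, against 2166 and 1921 in lung, 413 and 490 in muscle, and 338 in blood. The labels do not say whether libraries with the same number came from 1 animal, and this order was noticed after the values were seen and was not tested.

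Bat muscle control 2 was the highest of its group in all 10 genes, with a summed level of 876 CPM against 574 and 540 in the other 2.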
